A study of Homo sapiens with 4 samples.

Results

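The replication-dependent histone genes code for the H1 linker histones and the core histones H2A, H2B, H3 and H4 that package newly copied DNA. They were taken by name: each gene whose symbol follows the H1, H2AC, H2BC, H3C or H4C numbering, or whose older symbol starts with HIST1H, HIST2H, HIST3H or HIST4H, together with the identifier ENSG00000188987, which the rule lists and the reference tables used here do not name. This gave 55 of 51714 Ensembl gene identifiers in the deposited tables: 8 of H1, 15 of H2A, 17 of H2B, 9 of H3, 5 of H4 and the unnamed identifier. Of the 55, 18 are pseudogenes by annotation and held 22 reads in all libraries together. RefSeq lists 71 protein-coding genes that fit the rule, and 36 of them were matched here (6 of 6 for H1, 9 of 17 for H2A, 10 of 18 for H2B, 7 of 15 for H3 and 4 of 15 for H4). The others were not analysed here.

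Histone mRNAs of this family accumulate in S phase, when DNA is copied, and are removed when copying ends. Their transcripts are unusual among mRNAs of RNA polymerase II because they carry no poly(A) tail. A short stem-loop near the 3′ end is bound by the protein SLBP, and the U7 snRNP guides the cut just after it. The genes lie mainly in clusters, where the coactivator NPAT gathers at their promoters downstream of cyclin E and CDK2. Because total RNA was depleted of ribosomal RNA rather than selected for poly(A), these tailless transcripts could be counted in the libraries.

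All libraries came from Raji, an established line of human B lymphocytes that was derived from Burkitt's lymphoma and harbours Epstein-Barr virus. Every culture carried an LS*mock vector encoding RPB1, the largest RNA polymerase II subunit, as a recombinant form with an HA tag that resists α-amanitin. In 2 libraries (WT) this subunit was wild-type, and in the other 2 (R1810A) an arginine that is methylated in the C-terminal domain was replaced by alanine. Cells were selected with G418 and then kept for 10 days in α-amanitin, which blocks the endogenous polymerase, and the lines were polyclonal batches. The comparison asks whether gene expression differs when that arginine cannot be methylated. The labels do not say whether replicate libraries were grown as separate cultures, so p-values reflect the spread among these libraries alone, and that spread may be technical.

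Summed gene counts were 2081636 to 2991959 per library, and the 2 libraries of each group differed by more than sampling noise. All 7 B cell markers on a fixed list had reads in every library (5902 to 7661 summed CPM, which are counts scaled to the size of each library, here with TMM factors), while the erythroid and epithelial markers were all at 0. T cell markers summed to at most 0.661 CPM, with CD3D and CD2 at 0, fibroblast markers to 1.30 to 6.21 CPM and myeloid markers to 136 to 246 CPM. Genes annotated as snRNA, snoRNA or scaRNA, other short transcripts that mostly lack a poly(A) tail, took 0.265% and 0.289% of counts in WT and 0.802% and 0.494% in R1810A. The part of that difference in the histone values was not tested.

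The stem-loop is shown because it is the feature that sets these mRNAs apart. A pattern of 16 bases (GG, any pair of bases, CTTTT, any base, AG, any pair of bases, CC) was searched on the sense strand of GENCODE v29 transcripts (GRCh38). It was found in 18 of 36 members that are not pseudogenes and have a transcript there, and in 60 of 19922 protein-coding genes (0.301%). A member without a match may have a gene model that ends before the stem-loop, so no match says only that these letters are not in that model. The match of H2BC15 (chr6:27865778-27865793) lies in a model of 2 exons, far from its RefSeq promoter (chr6:27838319-27838568). That match may not belong to the gene's own histone mRNA, and it is counted here and under the first form below. Members that are not pseudogenes held 4 forms, written 5′ to 3′ as DNA with the loop in capitals:
H2AC6 (chr6:26124669-26124684, + strand), the form of 11 such members and of the pseudogene H2BC27P: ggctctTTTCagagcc
H4C8 (chr6:26285131-26285146, - strand), also in H4C11 and H4C16: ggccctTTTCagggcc
H2BC4 (chr6:26123472-26123487, - strand), also in H2BC5 and H3-4: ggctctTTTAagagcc
H2AC11 (chr6:27133515-27133530, + strand), a form shared with the pseudogene H2BC19P: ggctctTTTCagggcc
The form of the 3 H4 genes was found in no other member. In H2AC11 the stem-loop ended at base 489 of a deposited gene length of 2250 bases. In H2AC6 it ended at base 540 against a deposited length of 1660, and in H2BC21 at base 465 against 2223. Levels per length (RPKM) of such genes are therefore spread over bases that lie beyond the usual 3′ end.

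Promoters are shown for the member with the lowest fold change (H2AC11), the named H3 gene with the most reads (H3C4), a highly expressed linker gene (H1-4) and an H4 gene (H4C11). Each is the 250 bases before the gene's start from RefSeq (GRCh38.p14), 5′ to 3′ on the gene's strand. Capitals mark CCAAT on either strand, and likewise the letters TATAAA. They also mark the octamer, searched as ATGCAAAT on either strand, and overlapping matches run together:
H2AC11 (chr6:27132793-27133042, + strand): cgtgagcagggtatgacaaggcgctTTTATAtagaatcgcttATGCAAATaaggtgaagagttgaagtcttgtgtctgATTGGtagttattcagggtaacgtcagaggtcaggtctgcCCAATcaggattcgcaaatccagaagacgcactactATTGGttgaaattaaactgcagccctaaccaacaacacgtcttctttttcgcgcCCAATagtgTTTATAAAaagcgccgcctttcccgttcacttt
H3C4 (chr6:26197287-26197536, - strand): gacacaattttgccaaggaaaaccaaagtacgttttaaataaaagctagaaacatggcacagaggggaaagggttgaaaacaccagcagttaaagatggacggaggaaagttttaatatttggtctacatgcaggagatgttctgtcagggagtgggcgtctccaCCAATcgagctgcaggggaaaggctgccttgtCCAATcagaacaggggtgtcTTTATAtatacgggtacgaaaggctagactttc
H1-4 (chr6:26156079-26156328, + strand): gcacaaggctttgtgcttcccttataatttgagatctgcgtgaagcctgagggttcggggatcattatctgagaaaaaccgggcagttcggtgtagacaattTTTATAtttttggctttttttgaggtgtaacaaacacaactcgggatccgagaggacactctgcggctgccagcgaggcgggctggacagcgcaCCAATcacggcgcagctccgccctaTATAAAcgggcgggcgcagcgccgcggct
H4C11 (chr6:27823842-27824091, + strand): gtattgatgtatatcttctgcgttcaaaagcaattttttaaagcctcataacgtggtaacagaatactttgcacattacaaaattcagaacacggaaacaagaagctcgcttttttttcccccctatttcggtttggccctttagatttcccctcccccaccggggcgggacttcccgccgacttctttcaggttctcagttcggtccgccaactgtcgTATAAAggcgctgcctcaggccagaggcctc
RefSeq gave a promoter for 32 members, and H3C4 has a further start whose window is that of H2AC7. CCAAT, the letters bound by the factor NF-Y, lay in 29 of 32 (90.6%), against 37.0% of 27305 genes. It was in all H1, H2A, H2B and H3 promoters matched and in 0 of 3 H4 promoters. TATAAA, the letters of a TATA box core, lay in 23 (71.9%) against 13.0% of all genes. It was counted on either strand and anywhere in the window, so a match need not be a TATA box. In H4C16 the only match opens the window, at the end furthest from the gene's start. The octamer, which POU factors such as OCT1 (POU2F1) bind, lay in 13 (40.6%) against 2.03% of all genes. It was in 6 of 8 H2A and 6 of 10 H2B promoters, in 1 of 5 H3 promoters, in 0 of 6 H1 promoters and in 0 of 3 H4 promoters. The H3 match is in the second H3C4 window, which is the window of H2AC7 already counted under H2A. Head to head H2A and H2B genes have nearly the same window on opposite strands, so the same letters are counted under both types. This holds for the octamers of H2AC1 and H2BC1, H2AC6 and H2BC4, H2AC11 and H2BC11, and H2AC20 and H2BC21. The 13 genes therefore hold fewer separate octamers, and the CCAAT and TATAAA counts also include shared letters. H3C14 and H3C15, which are not head to head, have nearly the same sequence in their windows. Their CCAAT and TATAAA matches therefore repeat within the H3 count. A match describes letters and does not show binding.

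Histone transcripts of this family took a smaller share of the counts in R1810A than in WT. The members together held 0.657% of gene counts in WT replicate 1 (exact Clopper-Pearson 95% interval 0.647% to 0.668%), 0.710% in WT replicate 2 (0.701% to 0.720%), 0.551% in R1810A replicate 1 (0.541% to 0.561%) and 0.576% in R1810A replicate 2 (0.566% to 0.587%). The intervals cover counting error only. Both R1810A libraries lay below both WT libraries. Summed CPM was 6834 ± 263 in WT and 5638 ± 126 in R1810A (SD, n = 2), a ratio of 0.825. The ratio was 0.758 when the deposited total reads served as library size, a scaling that moved the median log2 fold change of all genes to -0.13. Less histone mRNA per cell and fewer cells in S phase cannot be told apart in these bulk libraries. No test was made of a sum over the members, and 2 against 2 libraries allow no exact permutation p below 0.333.

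Most members with enough reads lay lower in R1810A, and no single gene passed the threshold. The expression filter kept 25 members and left 30 out. Of the 25, 21 had a log2 fold change below 0, against 50.6% of 10674 genes tested, and the median was -0.26, against -0.00 for all genes tested. With edgeR's quasi-likelihood test, 0 members were called in either direction at a Benjamini-Hochberg adjusted p under 0.05 (0.00937% of all genes tested were called lower and 0.347% higher). DESeq2 and limma-voom also called 0. At an unadjusted p under 0.05, 10 members were lower and 1 was higher, where the same rule took 3.06% and 4.94% of all genes tested. In 17 members both R1810A libraries lay below both WT libraries (19.5% of all genes tested), in 1 both lay above (19.8%), and in 7 the groups overlapped. Members share libraries and some share sequence, so these counts are not independent observations.

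The values separated by read number. All 18 members with a mean count of at least 100 lay below 0, with a median log2 fold change of -0.30, and in 15 of them the R1810A libraries lay below the WT libraries. Of the 5424 tested genes with that many reads, 52.4% lay below 0, the median was -0.01, and in 22.1% the R1810A libraries lay below the WT libraries. With a library left out, H2AC13 (0.12 without R1810A replicate 1) and H4C8 (0.023 without WT replicate 2) changed sign among the 18. Of the 7 members with fewer reads, 3 lay below 0 and 4 above. The count of 100 was chosen after the values were seen. Other short genes had a median nearer 0. The 216 other tested protein-coding genes under 1000 bases had a median of -0.04, with 130 below 0 and 86 above. In 42 of them both R1810A libraries lay below both WT libraries (19.5% of all genes tested), and in 22 both lay above (19.8%). At an unadjusted edgeR p under 0.05, 14 were lower and 4 were higher, where all genes tested gave 3.06% and 4.94%. By each of these counts, more of the short genes lay lower than higher. The 17 members under 1000 bases had a median of -0.26, with 15 below 0 and 2 above. The 8 tested members of 1000 bases or more had a median of -0.16, with 6 below 0 and 2 above. Summed CPM, R1810A over WT, gave 0.804 for all members of 1000 bases or more and 0.829 for the shorter ones. The order of long and short members thus depended on the measure.

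**Figure D1:**
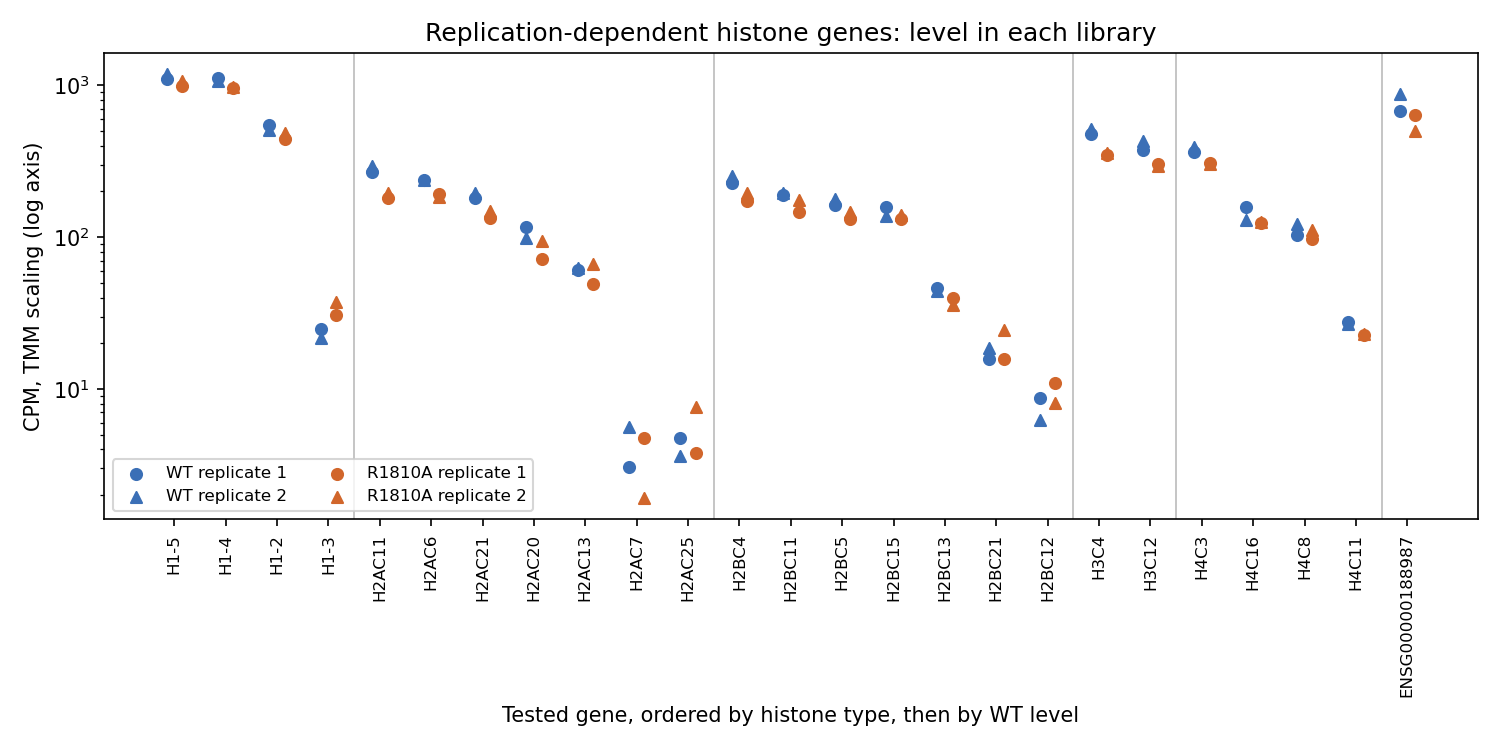
Level of each of the 25 tested members in each library, in CPM with TMM scaling on a log axis. Genes stand in order of histone type and WT level, with WT in blue and R1810A in orange (circle, replicate 1; triangle, replicate 2). In 17 genes both orange points lie below both blue points, and H1-3 shows the opposite order.

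Counted levels were uneven across the family. Per length, the deposited RPKM of the tested members ran from a mean of 2.40 for H2BC12 to 994 for ENSG00000188987 over the 4 libraries. Next below that identifier stood H1-5 (mean 741 RPKM), H1-4 (711), H4C3 (444) and H1-2 (366), followed by H3C4 (267) and H3C12 (245). Named H2A and H2B genes reached at most 199 RPKM (H2AC21) and 203 RPKM (H2BC11). Shared sequence differed among these genes. Of 36-base stretches in GENCODE v29 transcripts, 16.8% for H2BC12 and 18.0% for H4C11 were found in no other gene. The share was 99.7% for H1-5 and 100% for H4C3. It went the other way for H2BC21 (89.2%, at 4.47 RPKM) and H3C4 (0%). The part of shared sequence in these levels was not tested. By reads, H1-5, H1-4, ENSG00000188987, H1-2 and H3C4 together held 58.9% and 59.3% of member reads in WT and 60.9% and 59.4% in R1810A, so their part of the total was close in all libraries.

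Linker histone genes held the most reads of any single histone type as matched here. All 6 RefSeq H1 genes were matched, but only a part of those of each core type, so this order holds for the matched genes alone. H1 binds the DNA that enters and leaves the nucleosome, and somatic cells make several variants of it. H1-5 (ENSG00000184357) stood at 1096 and 1185 CPM in WT and at 989 and 1074 CPM in R1810A, a difference of -0.15 on the log2 scale (SE 0.11, edgeR adjusted p = 0.772). H1-4 (ENSG00000168298) stood at 1124 and 1074 CPM in WT and at 956 and 982 CPM in R1810A (-0.18 on the log2 scale, SE 0.11, adjusted p = 0.679). H1-2 stood at 547 and 509 CPM in WT and at 444 and 489 CPM in R1810A (-0.18 on the log2 scale, SE 0.11, adjusted p = 0.695). In each of these 3 genes both R1810A libraries lay below both WT libraries, and the test did not pass.

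H1-3 (ENSG00000124575), a further somatic linker variant, had the highest log2 fold change of the 25. Its reads were 57 and 66 in WT against 65 and 78 in R1810A, or 24.8 and 21.8 CPM against 30.9 and 37.2 CPM. This was the member with both R1810A libraries above both WT libraries, at a log2 fold change of 0.55 (SE 0.21, unadjusted p = 0.023, edgeR adjusted p = 0.523). Over the alternatives run its log2 fold change stayed between 0.41 and 0.68. Summed over the type, H1 stood at 2792 and 2791 CPM in WT and at 2421 and 2584 CPM in R1810A, a ratio of 0.896. H1-6, the variant of the testis, had 4 reads in all, and H1-1 had 3.

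H2A genes included the lowest fold change of the family. H2A pairs with H2B in the dimers that flank the H3-H4 tetramer of the nucleosome. H2AC11 (ENSG00000196787) was counted 618 and 890 times in WT against 380 and 408 times in R1810A. Its level was 269 and 294 CPM in WT and 181 and 195 CPM in R1810A, with no overlap. This was the lowest fold change of the 25, a log2 fold change of -0.58 (SE 0.11), or 0.667-fold, at an unadjusted p of 0.00028 and an edgeR adjusted p of 0.061. Over the alternatives run that adjusted p lay between 0.011 and 0.563, and the gene passed the threshold in 5 of them.

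H2AC21 (ENSG00000184270), in the HIST2 cluster, stood at 181 and 195 CPM in WT and at 134 and 149 CPM in R1810A (-0.41 on the log2 scale, SE 0.12, edgeR adjusted p = 0.30). H2AC6 stood at 237 and 239 CPM in WT and at 194 and 183 CPM in R1810A (-0.34 on the log2 scale, SE 0.11, adjusted p = 0.393). H2AC20 stood at 117 and 98.8 CPM in WT and at 71.8 and 94.0 CPM in R1810A (-0.37 on the log2 scale, SE 0.16, adjusted p = 0.594). In the third of these genes, R1810A replicate 2 came close to WT replicate 2. The groups overlapped in the other 3 tested H2A genes. H2AC13 stood at 60.4 and 62.4 CPM in WT and at 49.5 and 66.8 CPM in R1810A, while H2AC7 and H2AC25 lay under 8 CPM in every library. The summed H2A level was 873 and 900 CPM in WT against 639 and 700 CPM in R1810A, a ratio of 0.755.

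H2B genes gave intermediate values. H2BC4 (ENSG00000180596) stood at 226 and 252 CPM in WT and at 172 and 195 CPM in R1810A (-0.38 on the log2 scale, SE 0.12, edgeR adjusted p = 0.372). H2BC11 stood at 189 and 197 CPM in WT and at 147 and 175 CPM in R1810A (-0.26 on the log2 scale, SE 0.12, adjusted p = 0.634). H2BC5 stood at 162 and 178 CPM in WT and at 131 and 147 CPM in R1810A (-0.29 on the log2 scale, SE 0.12, adjusted p = 0.568). The groups did not overlap in these 3 genes. H2BC21, with 36 and 56 reads in WT against 33 and 51 in R1810A, stood at 15.7 and 18.5 CPM against 15.7 and 24.3 CPM, with overlap. H2BC13 had 46.5 and 43.9 CPM in WT against 39.5 and 35.8 CPM in R1810A, with no overlap, and H2BC15 had 159 and 138 CPM against 133 and 139 CPM, with overlap. H2BC12, at 8.70 and 6.28 CPM in WT and 10.9 and 8.11 CPM in R1810A, had the lowest level per length of the 25 tested members. The summed H2B level was 807 and 833 CPM in WT against 649 and 725 CPM in R1810A, a ratio of 0.837.

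The 2 tested H3 genes lay low together. H3 and H4 form the tetramer at the centre of the nucleosome. H3C4 (ENSG00000197409) stood at 477 and 516 CPM in WT and at 346 and 361 CPM in R1810A, a difference of -0.49 on the log2 scale (SE 0.11, edgeR adjusted p = 0.102). H3C12 (ENSG00000197153) stood at 374 and 432 CPM in WT and at 302 and 295 CPM in R1810A (-0.43 on the log2 scale, SE 0.11, adjusted p = 0.224). Neither gene's groups overlapped, and each R1810A pair lay close together. The summed H3 level was 851 and 949 CPM in WT against 649 and 655 CPM in R1810A, and the ratio of 0.725 was the lowest of the 5 types.

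H4 genes also lay below WT. H4C3 (ENSG00000197061), the named H4 gene with the most reads, stood at 363 and 391 CPM in WT and at 306 and 305.5 CPM in R1810A (-0.30 on the log2 scale, SE 0.11, edgeR adjusted p = 0.469). H4C16, the HIST4 gene on chromosome 12, stood at 158 and 129 CPM in WT and at 124 and 125 CPM in R1810A (-0.20 on the log2 scale, SE 0.13, adjusted p = 0.725). H4C8 stood at 103 and 122 CPM in WT and at 96.6 and 112 CPM in R1810A, with overlap (-0.11 on the log2 scale, SE 0.14, adjusted p = 0.874). H4C11 had 27.8 and 26.8 CPM in WT against 22.8 and 22.9 CPM in R1810A. The groups did not overlap in H4C3, H4C16 and H4C11. The summed H4 level was 651 and 669 CPM in WT against 549.6 and 566 CPM in R1810A, a ratio of 0.845.

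The unnamed identifier ENSG00000188987 had the highest level per length of all tested members, a mean of 994 RPKM over a deposited length of 367 bases. Its reads were 1548 and 2661 in WT against 1349 and 1043 in R1810A, or 673 and 879 CPM against 642 and 498 CPM. The groups did not overlap, but the WT libraries stood further apart than WT replicate 1 and R1810A replicate 1. Its log2 fold change was -0.45 (SE 0.15, edgeR adjusted p = 0.463). Without it, the median of the tested members was -0.26 and the ratio of summed CPM was 0.837.

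**Figure D2:**
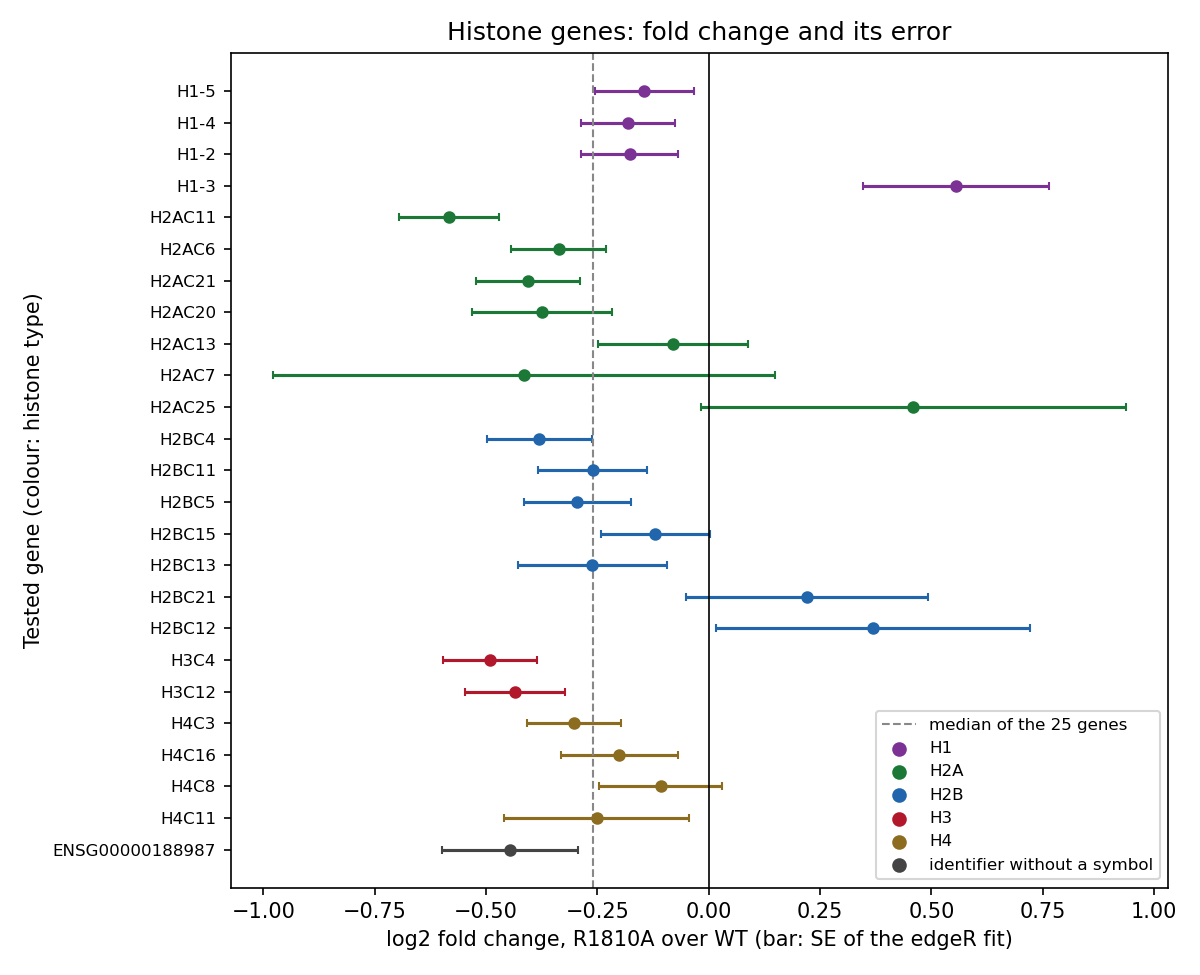
Log2 fold change, R1810A over WT, of the 25 tested members, with bars for the SE from the edgeR fit and colours for the histone type. The dashed line is their median of -0.26, and 4 points lie to the right of 0: H1-3, H2AC25, H2BC21 and H2BC12.

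Seen by type, each of the 5 summed levels was lower in both R1810A libraries than in both WT libraries. The ratio ran from 0.725 for H3 and 0.755 for H2A to 0.837 for H2B, 0.845 for H4 and 0.896 for H1. With a library left out in turn, H1 stayed between 0.867 and 0.925, H2A between 0.721 and 0.789, H2B between 0.791 and 0.884, H3 between 0.687 and 0.766, and H4 between 0.833 and 0.857, so the H1 range overlapped that of H2B. H1 made up 42.0% and 39.8% of member reads in WT and 43.6% and 45.1% in R1810A. The core types together gave 3183 and 3350 CPM in WT against 2486 and 2645 CPM in R1810A, a ratio of 0.786. ENSG00000188987, which has no type here, is in none of these sums (mean 776 CPM in WT and 570 CPM in R1810A, ratio 0.734). The core types were matched only in part, so the H1 share and the order of the types hold for the matched and named genes alone. No test was made of the difference between H1 and the core types.

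**Figure D3:**
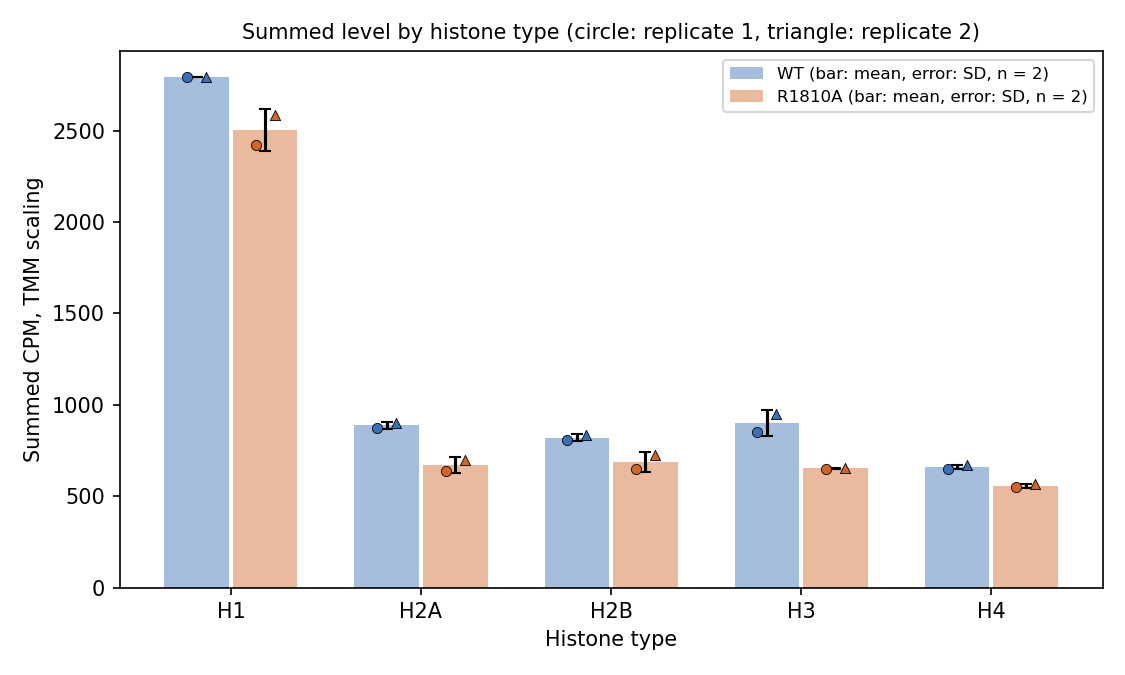
Summed CPM of the members of each histone type, with bars for the mean, error bars for the SD (n = 2) and points for the libraries. The orange R1810A points lie below the blue WT points in every type, with the closest approach of the groups, relative to their level, in H1. ENSG00000188987 has no type and is not shown.

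The HIST1 cluster on chromosome 6 held 82.7% and 81.1% of member reads in WT and 82.1% and 84.3% in R1810A. ENSG00000188987 was placed in no cluster and held 10.1% and 12.5% of member reads in WT and 11.6% and 8.69% in R1810A. The HIST1 level below is without it. The summed HIST1 level was 5499 and 5696 CPM in WT against 4558 and 4829 CPM in R1810A, a ratio of 0.839. HIST2, on chromosome 1, stood at 313 and 312 CPM in WT against 222 and 268 CPM in R1810A, a ratio of 0.782. HIST3, also on chromosome 1, had 8 to 16 reads in a library and groups that overlapped (ratio 1.25). The ratio lay below 1 in the HIST1, HIST2 and HIST4 sets, and HIST3 carried too few reads to place it.

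Several H2A and H2B genes stand head to head, so that a short region lies between their starts. RefSeq placed H2BC11 and H2AC11 248 bases apart, and their log2 fold changes were -0.26 and -0.58. H2BC4 and H2AC6, 246 bases apart, had -0.38 and -0.34. H2BC13 and H2AC13, 244 bases apart, had -0.26 and -0.08, and H2BC21 and H2AC20, 236 bases apart, had 0.22 and -0.37. In the pair of unlike sign, H2BC21 had 176 reads against 916 for H2AC20, an SE of 0.27 and groups that overlapped. Without R1810A replicate 2 its value was -0.13, the same sign as that of H2AC20.

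Members without a call because of low reads are accounted for as follows. Of the 30 that did not pass the filter, 19 had 0 reads in every library and 13 of these are pseudogenes, while 11 had 1 to 15 reads. H2AC10P had the most, with 5 and 5 reads in WT against 2 and 3 in R1810A. H2BC26 had 2 reads, H4C10P 2, H3C13 1 and H2BC1 1. Near-identical copies make single values uncertain: of all 36-base stretches in their GENCODE v29 transcripts, 0% were found in no other gene for HIST2H2AA3, H3C14, H3C15 and HIST2H3PS2, and these 4 genes had 0 reads. H2BC18 and H3-4 also had 0 reads, with 69.9% and 98.0% of their stretches found in no other gene. H3C4 had 4144 reads although 0% of its modelled stretches were its own, and overlapping models count as other genes there. How the authors treated reads that match several places is not given in the sources used here, and a count of 0 for such a copy does not show that it is silent.

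**Figure D4:**
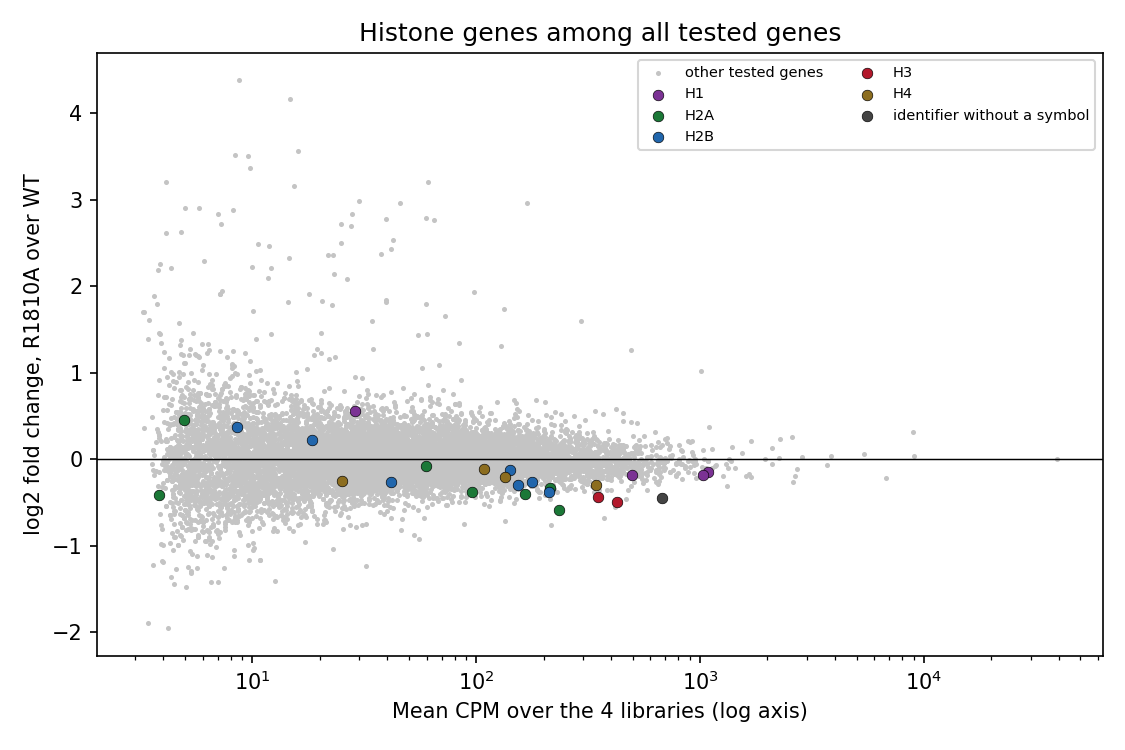
Log2 fold change, R1810A over WT, against mean CPM over the 4 libraries (log axis) for all 10674 tested genes, in grey, with the 25 histone genes coloured by type. At a mean count of at least 100 all 18 coloured points lie below 0, and the median of the 5424 tested genes with that many reads is -0.01.

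Genes that transcribe and process histone mRNA lay on both sides of 0. Of 29 tested genes on that list, 13 lay below 0 and 16 above, with a median of 0.04, and 0 were called by edgeR in either direction. At an unadjusted p under 0.05, 1 was lower and 0 were higher, against 3.06% and 4.94% of all genes tested. SLBP, which binds the stem-loop, stood at 120 and 120 CPM in WT and at 118 and 129 CPM in R1810A (0.04 on the log2 scale, SE 0.12, adjusted p = 0.948). NPAT, the coactivator of histone genes, stood at 84.8 and 88.2 CPM in WT and at 85.6 and 86.4 CPM in R1810A (-0.01 on the log2 scale, adjusted p = 0.986). CASP8AP2, a protein of the histone locus body, had 79.1 and 112 CPM in WT against 74.2 and 93.1 CPM in R1810A, with overlap (-0.20 on the log2 scale, SE 0.18, adjusted p = 0.801). LSM11, a protein of the U7 snRNP, had 28.3 and 38.6 CPM against 40.9 and 36.3 CPM, also with overlap (0.19, SE 0.20, adjusted p = 0.840). CDK2, the kinase that acts on NPAT, stood at 146 and 155 CPM in WT and at 121 and 126 CPM in R1810A (-0.29 on the log2 scale, SE 0.12, unadjusted p = 0.030, adjusted p = 0.567). ZNF473, a zinc finger protein of U7-dependent processing, had 68.7 and 67.7 CPM in WT against 55.2 and 56.3 CPM in R1810A (-0.29, SE 0.14, adjusted p = 0.647). The U7 snRNA gene RNU7-1 had 1 read.

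Lists of genes for histone mRNA decay, histone chaperones and S phase had medians between -0.04 and 0.15. Of 9 genes of histone mRNA decay, 8 lay above 0 with a median of 0.15, and 0 passed at an unadjusted p under 0.05. TUT7, which adds uridines to the 3′ end of histone mRNA, had 55.2 and 59.1 CPM in WT against 68.5 and 70.2 CPM in R1810A (0.28 on the log2 scale, SE 0.14, adjusted p = 0.654). The decapping enzyme DCP2 had 52.2 and 45.6 CPM against 53.3 and 68.7 CPM (0.33, SE 0.17, adjusted p = 0.656). Of 18 histone chaperone genes, 10 lay below 0 with a median of -0.01. ASF1B, which hands over H3-H4 dimers, had 340 and 304 CPM in WT against 265 and 280.2 CPM in R1810A (-0.24, SE 0.11, adjusted p = 0.634). DAXX, a chaperone of H3.3, had 53.9 and 51.5 CPM against 63.8 and 62.5 CPM (0.26, SE 0.14, adjusted p = 0.672), and these 2 chaperones had the smallest p of their list. Of 23 tested S phase genes, 13 lay below 0 with a median of -0.04. TK1, thymidine kinase, stood at 146 and 151 CPM in WT and at 104 and 109.8 CPM in R1810A (-0.48 on the log2 scale, SE 0.12, unadjusted p = 0.0019, edgeR adjusted p = 0.189). PCNA, the sliding clamp of replication, stood at 223 and 194 CPM in WT and at 233 and 253 CPM in R1810A (0.22 on the log2 scale, SE 0.12, adjusted p = 0.654). TK1 and PCNA, the S phase genes with the smallest p, thus lay on opposite sides of 0. No gene of these lists was called by edgeR, and at an unadjusted p under 0.05 the S phase list had 1 lower gene and 0 higher. That rule took 3.06% of all genes tested as lower and 4.94% as higher.

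Histone genes whose mRNAs carry a poly(A) tail gave a further comparison. Of 12 on the list, 8 were tested, 3 lay below 0 and 5 above, and the median log2 fold change was 0.07. With an unadjusted p under 0.05, 0 passed, against 3.06% lower and 4.94% higher among all genes tested. H2AX, the variant phosphorylated at DNA breaks, whose transcripts occur in both forms, stood at 272 and 249.7 CPM in WT and at 219 and 224 CPM in R1810A (-0.23 on the log2 scale, SE 0.11, edgeR adjusted p = 0.634). CENPA, the H3 variant of centromeres, had 47.4 and 31.7 CPM in WT against 33.8 and 30.6 CPM in R1810A, with overlap (-0.28, SE 0.22, adjusted p = 0.780). The difference between these genes and the replication-dependent ones was not tested.

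**Figure D5:**
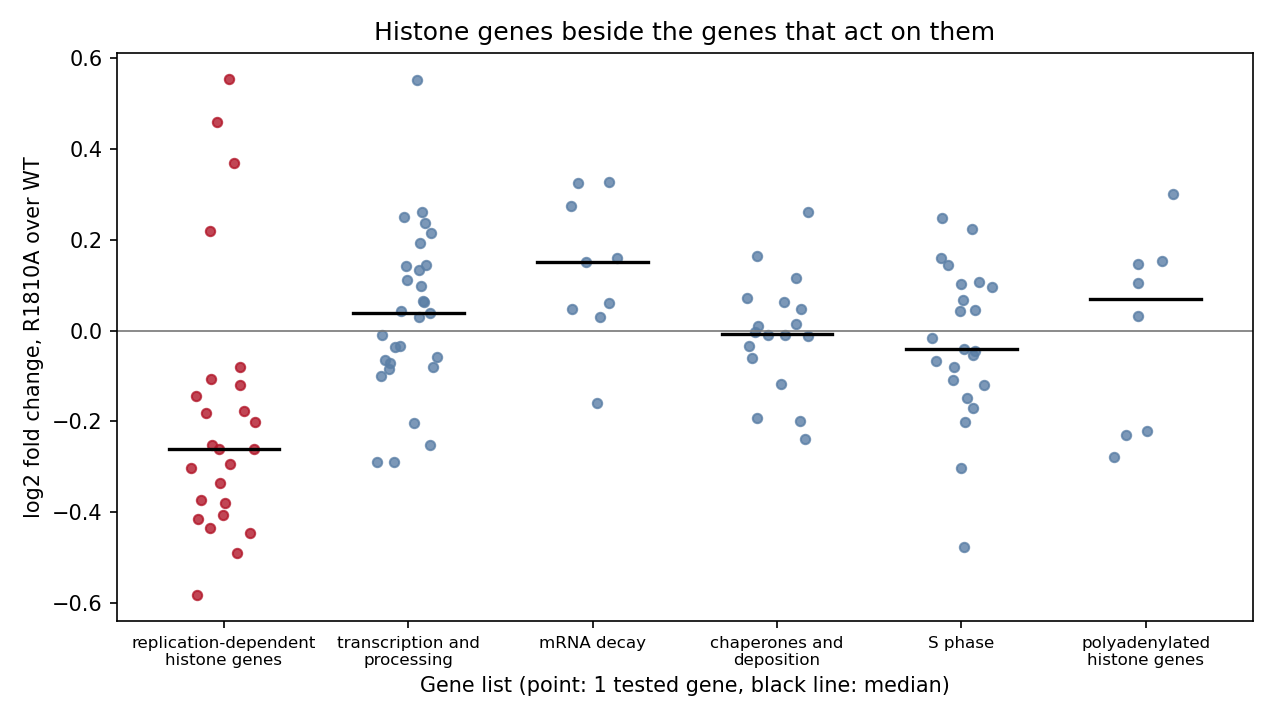
Log2 fold change, R1810A over WT, of each tested gene (points, spread sideways for visibility) in the replication-dependent histone genes and in the 5 lists of related genes, with black lines for the medians. The median of the histone genes is -0.26, and those of the other lists lie between -0.04 and 0.15.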

How the data were processed

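Per the labels' protocols, RNA of 4 Raji libraries (2 WT, 2 R1810A) was depleted of ribosomal RNA with a capture kit and sequenced on an Illumina GAII. Bowtie aligned the reads and the build was hg19, per the submitters' processing notes. The sources used here do not give the counting program, its use of strand or its handling of reads with several matches. Tests used the counts of reads per gene that the authors deposited, with no scaling. The deposited RPKM equalled count divided by deposited gene length and total reads in every row (relative tolerance 0.0001), and served only to compare levels between genes.

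Symbols were looked up among current gene names and in GENCODE v29, and 40926 of 51714 identifiers received one. In R 4.3.3, edgeR 4.0.16 fitted all genes (glmQLFit and glmQLFTest after filterByExpr and TMM scaling, with a term for group alone), with Benjamini-Hochberg adjustment over 10674 genes and a threshold of 0.05. The fit was tested on simulated data whose changes were larger than those of the members. That run does not cover changes as small as theirs. SE is the absolute log2 fold change divided by the square root of F. Alternatives were other scalings, filters and tools (DESeq2 1.42.0, limma-voom in limma 3.58.1), the replicate block, and each library left out. Deviations of same-numbered libraries had a correlation of -0.04, so numbers were not taken to pair libraries.

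Full values are given for the 3 members of each histone type with the highest mean RPKM, the 6 members with the smallest p, the highest and lowest log2 fold change, partners in head to head pairs, and from each pathway list the 2 smallest p with SLBP, NPAT, CASP8AP2 and LSM11. The members, lists and alternatives were chosen with earlier results of these data known. Of the summed gene counts per library, 2081636 to 2991959, the members made up under 1%, so genes of few reads have wide counting error.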

Additional observations from a re-analysis of the deposited data

How the results depend on the processing

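The count of members called by edgeR, 0 as reported, was 2 with the deposited total reads as library size (H2AC11 and H3C4), 2 with no filter on low counts (the same genes, H2AC11 and H3C4) and 1 with robust dispersion (H2AC11). With the replicate block it was 1 (H2AC11, adjusted p = 0.025). With a library left out in turn it lay between 0 and 4, and the 4 (H2AC11, H3C4, H3C12 and ENSG00000188987) came without WT replicate 1. A library left out leaves 1 in its group, which is then assumed to vary like the other group. Among all genes tested, the share called lower also differed, from 0.00937% as reported to 0.0469% with total reads, 0.0324% with no filter, 0.0375% with robust dispersion, 0.0375% with the block and 0.364% without WT replicate 1. The cause of these differences was not tested. The median of the tested members was -0.38 with the deposited total reads, where the median of all genes was -0.13, and lay between -0.25 and -0.20 with a library left out. The number of members below 0 lay between 19 and 22 with a library left out, and the number whose R1810A libraries lay below WT was 20 with total reads, a scaling under which 36.4% of all genes tested did so (19.5% with TMM). The ratio of summed CPM was 0.758 with total reads and lay between 0.803 and 0.848 with a library left out. Of 325 alternative values of single members, 6 changed sign, all with a library left out: log2 fold changes lay between -0.31 and 0.12 for H2AC13 (the sign changed without R1810A replicate 1), between -0.12 and 0.87 for H2AC25 and between -0.13 and 0.50 for H2BC21 (for both, without R1810A replicate 2), between -1.20 and 0.13 for H2AC7 (0.13 without WT replicate 2, 0.10 without R1810A replicate 2), and between -0.22 and 0.023 for H4C8 (without WT replicate 2). The other 20 members kept their sign under the alternatives run.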
